A study of Mus musculus with 9 samples.

Results

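The 10 genes Slc7a5, Slc3a2, Slc1a5, Slc1a4, Slc7a1, Slc7a6, Slc7a11, Slc38a1, Slc38a2 and Slc43a1 encode amino acid transporters of the plasma membrane that activated T cells use. They were found by gene symbol among the 24060 genes of the expression table, and all 10 were among the 11330 genes whose highest level exceeded 1 TPM and which were tested. RNA was sequenced from 3 CD8 T cell clones, called R7-I, R7-II and R7-III, with 3 libraries of each and 9 in all, and the comparisons address how clones of 1 specificity but different receptors differ once activated. Each clone came from a transnuclear mouse line on a BALB/c background with intact Rag2. In such a line every mouse descends from the nucleus of 1 T cell, so its CD8 T cells share the receptor of that founder, here for a peptide of the Toxoplasma gondii protein ROP7, and each line stands for 1 receptor. Per the labels, affinity for the peptide is highest in R7-I and lowest in R7-II, and self-reactivity is highest in R7-III and lowest in R7-II. All groups had the same treatment. Splenocytes received the ROP7 peptide at 10 µM together with IL-2 at 10 ng/ml overnight, and live CD3+ CD8+ cells binding the H-2Ld-Rop7 tetramer were sorted. The sources used here do not give the age of the mice, and the unstimulated cells were not analysed here.

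Naive T cells take up little amino acid, and a T cell that has met antigen raises its uptake to feed protein synthesis, nucleotide synthesis and growth. Slc7a5 (LAT1) imports leucine and other large neutral amino acids in exchange for glutamine and reaches the surface only as a pair with Slc3a2, the CD98 heavy chain, while Slc1a5 (ASCT2) and the Slc38 carriers bring in glutamine and other small neutral amino acids. Leucine and arginine in turn are sensed by mTORC1, the kinase complex that couples nutrient supply to growth, and shortage is sensed by the kinase Gcn2 and the transcription factor Atf4.

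In GRCm38, the mm10 build, the heavy chain gene Slc3a2 spans chr19:8706882-8723369 and its light chain genes are Slc7a5 at chr8:121881146-121907686, Slc7a6 at chr8:106168219-106198714 and Slc7a11 at chr3:50364936-50499087. The neutral amino acid carriers are Slc1a5 at chr7:16781334-16798274, Slc1a4 at chr11:20302180-20332713, Slc38a1 at chr15:96571418-96643438 and Slc38a2 at chr15:96687392-96699728. The arginine and lysine carrier Slc7a1 spans chr5:148327410-148399904, and Slc43a1 spans chr2:84838855-84863586. No exon of these genes overlapped an exon of another gene in the GENCODE annotation. Of the 10 genes, 7 had a RefSeq promoter window of GRCm38.p6 (250 bases before to 50 after the start site), and Slc7a5, Slc1a5 and Slc38a1 had none in the table. The windows were searched on both strands for CACGTG (the E-box, a site that Myc can bind), TGATGNAA (the core of the amino acid response element) and TGACNNNGC (the core of the antioxidant response element), which do not overlap one another in the windows shown. These motifs were in 7.15%, 3.97% and 12.4% of all 32851 windows of the table. The response element core was in Slc1a4, where it began 4 bases upstream of the start and reached past it. It was also in Slc7a11, 66 and 47 bases upstream on opposite strands, and the antioxidant core was in Slc7a1, Slc7a6, Slc38a2 and Slc43a1. Slc7a1 and Slc7a6 each had a further window. That of Slc7a1 held none of these motifs and is not shown, and that of Slc7a6 held the antioxidant core. The E-box was found in Slc43a1, 64 bases upstream. A match is only a match of letters and no binding was measured. The windows of Slc7a1, Slc1a4 and Slc7a11, which were lower in R7-II than in R7-III, and of Slc43a1, which was higher in R7-III than in both other clones, are shown 5′ to 3′ on the strand of the gene, at chr5:148399855-148400154 (minus strand), chr11:20332664-20332963 (minus strand), chr3:50443564-50443863 (minus strand) and chr2:84840073-84840372 (plus strand), with the motif matches in capitals.
Slc7a1: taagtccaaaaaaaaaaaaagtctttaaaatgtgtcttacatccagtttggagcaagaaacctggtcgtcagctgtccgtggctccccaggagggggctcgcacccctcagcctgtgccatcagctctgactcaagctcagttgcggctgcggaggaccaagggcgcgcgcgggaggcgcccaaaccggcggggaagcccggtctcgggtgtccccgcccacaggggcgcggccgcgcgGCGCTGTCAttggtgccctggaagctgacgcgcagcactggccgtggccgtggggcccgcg
Slc1a4: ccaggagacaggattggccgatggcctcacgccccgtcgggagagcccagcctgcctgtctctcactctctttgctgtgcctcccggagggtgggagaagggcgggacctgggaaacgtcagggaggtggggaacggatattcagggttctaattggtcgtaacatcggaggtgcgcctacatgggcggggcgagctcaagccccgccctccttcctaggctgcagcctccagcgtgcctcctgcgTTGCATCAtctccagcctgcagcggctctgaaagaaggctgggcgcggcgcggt
Slc7a11: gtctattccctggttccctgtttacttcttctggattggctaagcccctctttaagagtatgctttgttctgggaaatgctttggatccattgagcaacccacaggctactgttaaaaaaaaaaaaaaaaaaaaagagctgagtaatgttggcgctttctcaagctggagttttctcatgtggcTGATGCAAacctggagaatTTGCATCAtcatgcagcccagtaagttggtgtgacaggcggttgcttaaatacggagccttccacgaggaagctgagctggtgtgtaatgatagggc
Slc43a1: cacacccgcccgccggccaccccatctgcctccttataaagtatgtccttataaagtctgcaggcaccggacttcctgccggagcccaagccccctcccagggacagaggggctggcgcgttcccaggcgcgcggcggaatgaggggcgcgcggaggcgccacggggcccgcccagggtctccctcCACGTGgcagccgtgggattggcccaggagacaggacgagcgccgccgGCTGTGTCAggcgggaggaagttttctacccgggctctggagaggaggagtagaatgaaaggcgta

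Levels are given in TPM, a measure of transcript abundance that is corrected for transcript length and sums to 1 fixed total per library, so that genes can be compared within a library, while the number of reads behind a library is unknown and no counting error can be given. Slc1a5 was the most abundant of the transporters in every clone, with a mean of 491 TPM for R7-III, 451 TPM for R7-I and 420 TPM for R7-II. It was followed by Slc7a5 and Slc3a2, and over the 9 libraries these held the ranks 286, 495 and 514 of 24060 genes. Slc7a1, Slc38a1 and Slc38a2 lay between 110 and 148 TPM in all libraries, Slc7a6 between 61.0 and 68.6 TPM and Slc1a4 between 19.4 and 26.2 TPM. The least abundant were Slc7a11, the cystine carrier, and Slc43a1, a further carrier of large neutral amino acids, which stayed under 6 TPM. In R7-I and R7-III the order of the first 3 was Slc1a5, Slc7a5, Slc3a2, whereas in R7-II the mean of Slc3a2 was above that of Slc7a5 and their libraries overlapped. The other neighbours whose libraries overlapped were Slc38a1 with Slc38a2 in R7-I, and Slc38a2 with Slc7a1, Slc7a1 with Slc38a1 and Slc43a1 with Slc7a11 in R7-II. Summed over the 10 genes, the level was 1565 ± 15.6 TPM for R7-III, 1516 ± 56.2 TPM for R7-I and 1436 ± 82.1 TPM for R7-II, each the mean ± SD of n = 3 libraries.

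**Figure D1:**
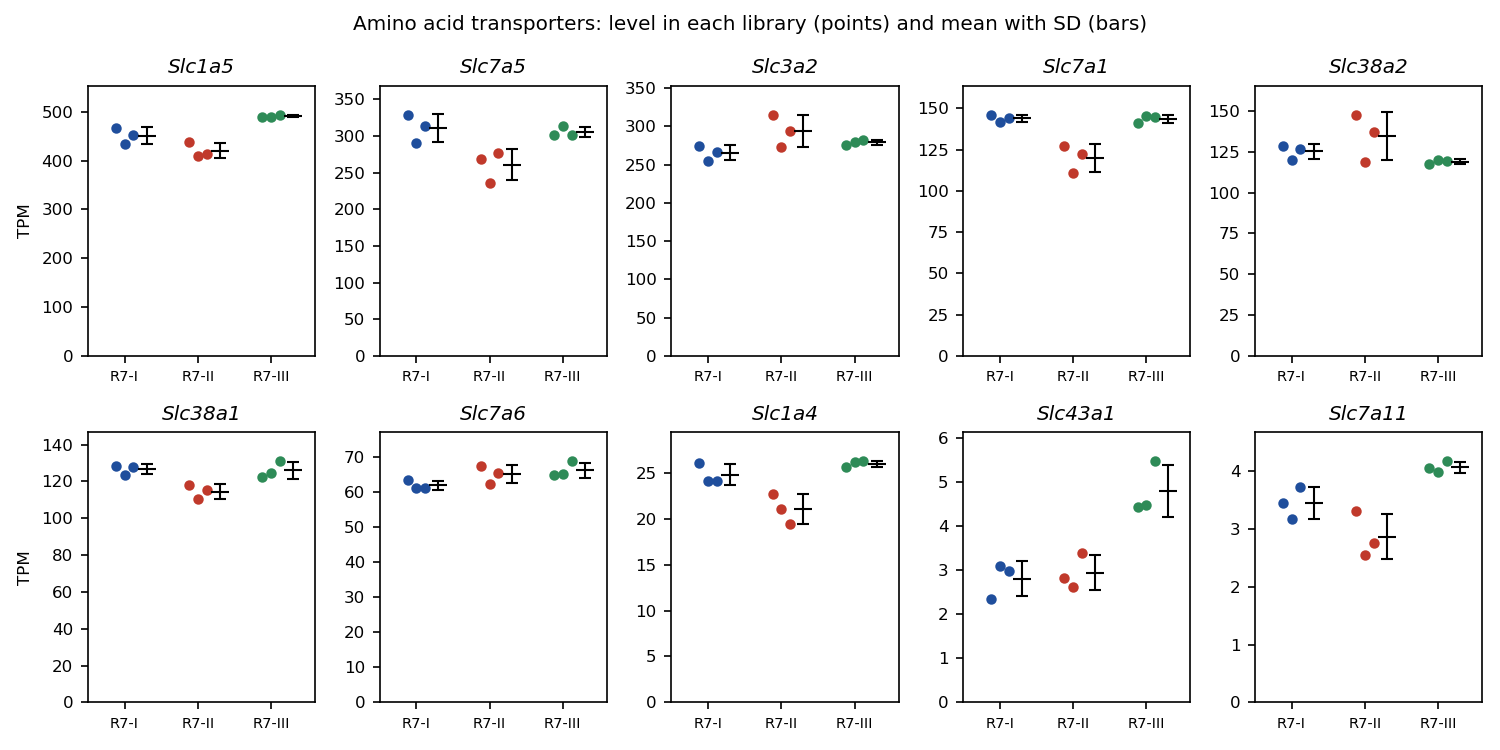
Level in TPM (vertical axes, from 0) of the 10 amino acid transporters in each of the 9 libraries (points) by clone, with the mean and SD of 3 libraries (black bars). The R7-II points of Slc7a5, Slc7a1, Slc38a1 and Slc1a4 lie below all points of the other clones, and the R7-III points of Slc1a5, Slc7a11 and Slc43a1 lie above all others.

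The cells were CD8 T cells by their markers, with Cd8a at means of 343, 430 and 377 TPM and Cd3e at 270, 380 and 324 TPM in R7-I, R7-II and R7-III. The summed level of 10 CD8 T cell genes was 4027, 3974 and 3989 TPM in R7-II replicates 1, 2 and 3. It was at most 2894 TPM in R7-I and at most 3149 TPM in R7-III. The R7-II libraries also stood apart in the markers of other cells. The summed level of 12 B cell genes, of which Cd79b was the most abundant, was 81.2, 40.1 and 64.6 TPM in R7-II replicates 1, 2 and 3, between 10.5 and 17.6 TPM in R7-I and between 6.65 and 9.88 TPM in R7-III. The sum of 8 MHC class II genes, led by Cd74, was 190, 116 and 187 TPM in R7-II and at most 51.8 TPM elsewhere, and that of 15 myeloid genes, led by Lyz2 in R7-II, was 54.9, 30.7 and 104 TPM in R7-II and at most 9.09 TPM elsewhere. Of the genes of these lists that passed the filter on low values, 4 of 10, 1 of 8 and 11 of 14 exceeded 1 TPM only in R7-II, so no count of calls is given for them. The red cell genes summed to 56.6, 131 and 45.2 TPM in the R7-I libraries, 1.95, 4.73 and 22.1 TPM in those of R7-II and 41.8, 35.6 and 14.4 TPM in those of R7-III, so that R7-II lay below R7-I and overlapped R7-III. The most abundant of them over the 9 libraries was Hbb-b1. Near-identical globin copies may share reads, which was not tested, and Hbb-b2 and Hbb-bt had the same value in every library. CD4 T cell genes summed to at most 2.94 TPM and NK cell genes to at most 0.50 TPM in any library, and Klra8 was at 0 in all 9. The part of these other cells in the differences below was not tested, and in sorted bulk samples fewer cells of a type and less RNA per cell cannot be told apart.

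Differences were tested with limma on log2(TPM + 1) in 1 fit of all 9 libraries, with Benjamini-Hochberg adjustment over the 11330 genes and a threshold of 0.01. The labels call the samples biological replicates, without saying whether each is a separate mouse, so the p-values measure the spread between these samples. In R7-II, 4 of the 10 transporters were lower than in R7-I and 7 were lower than in R7-III, and none was higher in either comparison. These counts depended on single libraries. In the comparison with R7-I between 1 and 5 transporters passed when a library was dropped, with 1 when it was replicate 1 or 3 of R7-I and 2 when it was replicate 3 of R7-II. In that with R7-III between 4 and 7 passed, with 4 when replicate 2 or 3 of R7-III was dropped. Of all genes, between 5429 and 6369 passed against R7-I with a library dropped, beside 6358 in the full fit. Against R7-III these were between 5113 and 6121, beside 6077. At this threshold 56.1% of all genes differed between R7-II and R7-I, 40.6% higher and 15.5% lower, and 53.6% between R7-II and R7-III, 35.6% higher and 18.0% lower. The median log2 fold change of the transporters was -0.12 with R7-I as the reference and -0.23 with R7-III, beside 0.17 and 0.12 for all genes tested. That shift of all genes depends on the scaling of the libraries. When each library was scaled by median of ratios, the medians of all genes were near 0, the medians of the transporters were -0.31 and -0.36, and 7 and 8 of the 10 were lower, beside 29.4% and 28.2% of all genes, and none was higher, beside 2860 and 2836 of the 11330 genes. With quantile normalization, which gives every library the same distribution of values, Slc7a5 lost both calls. Against R7-I, Slc3a2 then became higher (log2 fold change 0.20, limma adjusted p = 0.00192) and Slc7a11 lower (-0.56, limma adjusted p = 3.25e-04). The other transporter calls in both R7-II comparisons were kept. Of all genes 22.6% were then higher and 26.6% lower against R7-I, and 24.4% and 25.1% against R7-III. For 4 of the 10 transporters, Slc7a5, Slc1a4, Slc7a1 and Slc38a1, the 3 R7-II libraries lay below the other 6, as they did for 17.4% of all genes, and no transporter had all R7-II libraries above the other 6, a pattern found in 41.7% of all genes. Both R7-II comparisons share the R7-II libraries and are therefore not independent of each other. When R7-III was set against R7-I, 1 transporter, Slc43a1, was higher in R7-III and none was lower, beside 8.41% of all genes that differed, 6.96% higher and 1.45% lower. These counts also depended on single libraries. With a library left out, 0 to 1 transporters and 436 to 1120 of all genes passed, the latter beside 953 in the full fit.

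**Figure D2:**
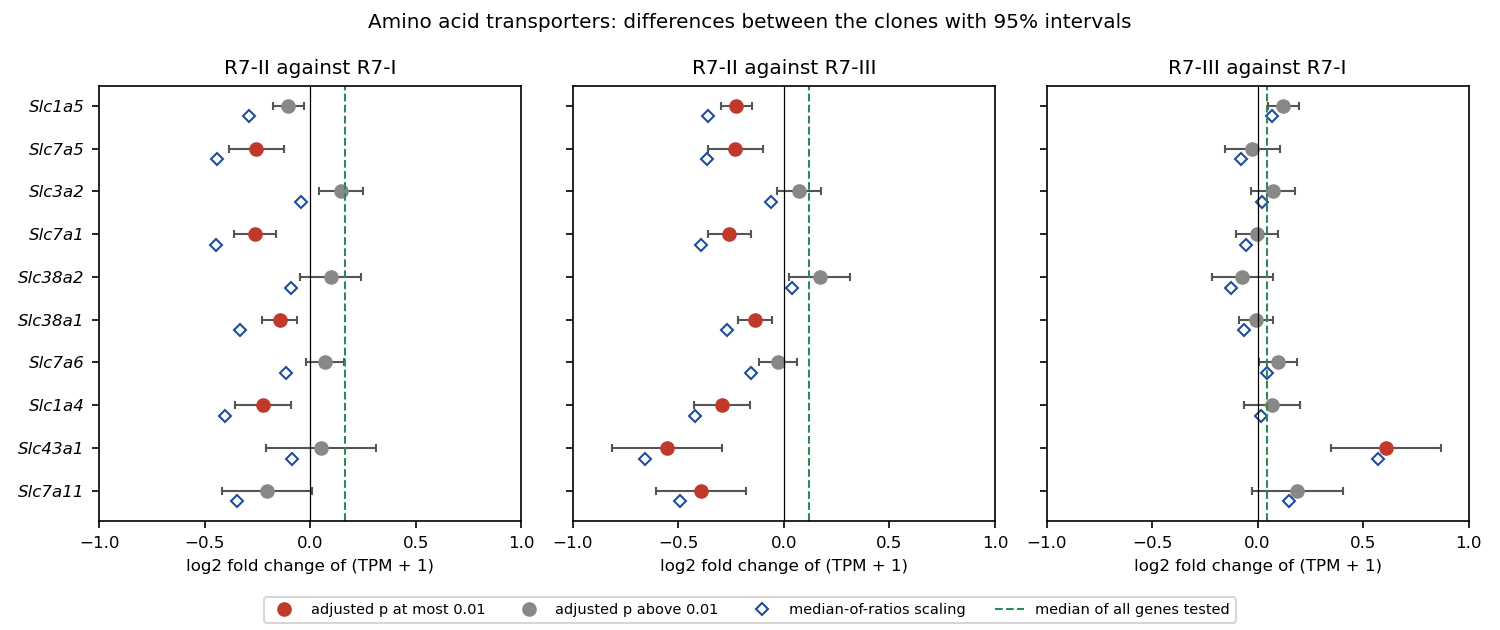
Log2 fold change of (TPM + 1) of each transporter (horizontal axes) in the 3 comparisons, with 95% intervals, red where the adjusted p was at most 0.01, grey otherwise. Open diamonds give the value after median-of-ratios scaling and the dashed line the median of all genes tested, and 4 red points lie left of 0 against R7-I, 7 against R7-III.

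Of the CD98 pair, Slc7a5 was lower in R7-II while Slc3a2 was not. Slc7a5 was at 329, 291 and 313 TPM in R7-I replicates 1, 2 and 3, at 269, 236 and 276 TPM in R7-II and at 301, 313 and 301 TPM in R7-III. Every R7-II library was thus below every other library (exact two-sided permutation test of 3 against 6 libraries, p = 0.0238, the smallest this design allows), while R7-I and R7-III overlapped. R7-II differed by a log2 fold change of -0.26 from R7-I (95% interval -0.38 to -0.13, limma adjusted p = 0.00277) and -0.23 from R7-III (-0.36 to -0.10, limma adjusted p = 0.00527). Slc3a2 was at 274, 255 and 267 TPM in R7-I, at 315, 273 and 294 TPM in R7-II and at 276, 279 and 282 TPM in R7-III. The R7-II libraries overlapped both other clones, with log2 fold changes of 0.15 against R7-I (95% interval 0.04 to 0.25, limma adjusted p = 0.0177) and 0.07 against R7-III (-0.03 to 0.18, limma adjusted p = 0.199), and median-of-ratios scaling turned both below 0, to -0.04 and -0.06. The call of Slc7a5 was lost without R7-I replicate 1 or 3 against R7-I (limma adjusted p = 0.0140 and 0.0106), and against R7-III without R7-II replicate 2 (0.0119) or R7-III replicate 1, 2 or 3 (0.0133, 0.0219 and 0.0130). Both calls were also lost with quantile normalization, which gives every library the same distribution of values (limma adjusted p = 0.0207 and 0.0331), and without the mean-variance trend (0.0105 and 0.0173), and that against R7-III without the filter on low values (0.0138). Slc3a2 passed against R7-I without R7-II replicate 2 (log2 fold change 0.20, limma adjusted p = 0.00141) and with quantile normalization (0.20, limma adjusted p = 0.00192).

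The ratio of both genes within a library does not depend on the scaling. Slc3a2 over Slc7a5 was 0.835, 0.877 and 0.854 in the R7-I libraries, 1.17, 1.16 and 1.07 in those of R7-II and 0.918, 0.892 and 0.938 in those of R7-III. The heavy chain transcript therefore exceeded that of Slc7a5 in R7-II and stayed under it in both other clones, with no overlap between R7-II and the rest. Against the sum of the light chains that pair with it, Slc7a5, Slc7a6, Slc7a7, Slc7a8, Slc7a10 and Slc7a11, Slc3a2 came to 0.894 ± 0.0382 in R7-II, 0.743 ± 0.0128 in R7-III and 0.705 ± 0.0127 in R7-I (mean ± SD, n = 3). These ratios are of RNA, and no protein or uptake was measured. The CD8 T cell, B cell, MHC class II and myeloid sums above were also highest in R7-II, and the part of other cells in these ratios was not tested.

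**Figure D3:**
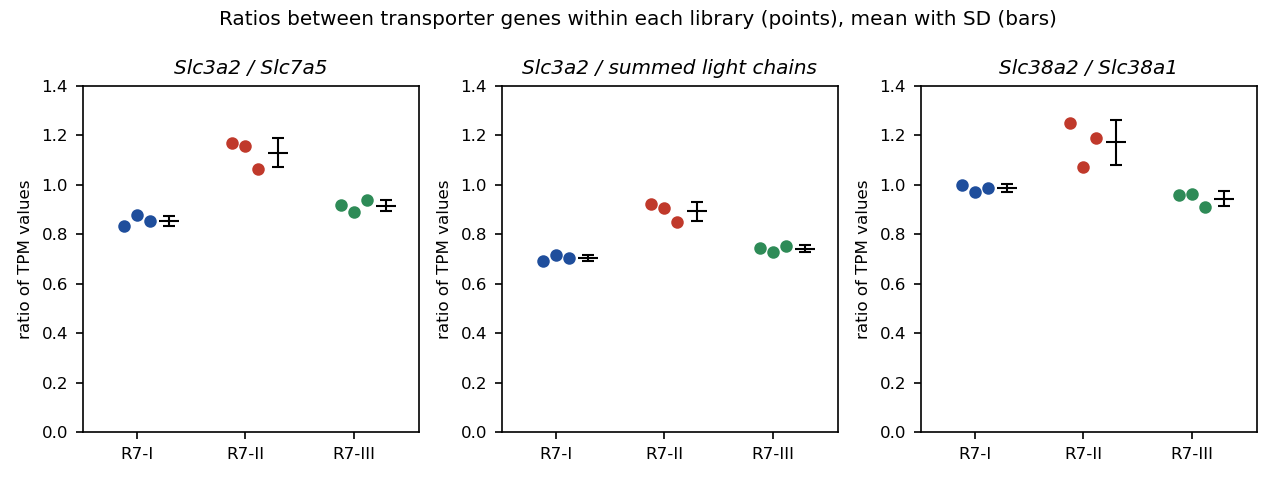
Ratios of TPM values within each library (points, vertical axes from 0) for Slc3a2 over Slc7a5, Slc3a2 over its summed light chains and Slc38a2 over Slc38a1, with mean and SD of 3 libraries (black bars). The R7-II points lie above all others in each panel, for Slc3a2 over Slc7a5 between 1.07 and 1.17.

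The other light chains gave 2 patterns. Slc7a6, which exchanges cationic against neutral amino acids, was at 63.4, 61.0 and 61.0 TPM in R7-I, at 67.4, 62.2 and 65.2 TPM in R7-II and at 64.7, 65.2 and 68.6 TPM in R7-III. It passed the threshold in no comparison, with log2 fold changes of 0.07 for R7-II against R7-I (95% interval -0.02 to 0.16), -0.03 for R7-II against R7-III (-0.12 to 0.06) and 0.10 for R7-III against R7-I (0.01 to 0.19), although median-of-ratios scaling made it lower in R7-II than in R7-I (log2 fold change -0.11, limma adjusted p = 0.00920) and in R7-III (-0.16, limma adjusted p = 0.00150). Slc7a11, which imports cystine for glutathione synthesis in exchange for glutamate, was at 3.45, 3.18 and 3.72 TPM in R7-I, at 3.31, 2.55 and 2.75 TPM in R7-II and at 4.05, 3.98 and 4.17 TPM in R7-III. Its R7-II libraries were all below those of R7-III (log2 fold change -0.39, 95% interval -0.61 to -0.18, limma adjusted p = 0.00426) and overlapped those of R7-I (-0.20, -0.42 to 0.01, limma adjusted p = 0.0813). Against R7-I it passed after median-of-ratios scaling (log2 fold change -0.35, limma adjusted p = 0.00472) and with quantile normalization (-0.56, limma adjusted p = 3.25e-04). At this low level the pseudocount of 1 TPM makes the fold changes smaller, and the call against R7-III was lost without R7-II replicate 2 or 3 (limma adjusted p = 0.0130 and 0.0143) without R7-III replicate 1, 2 or 3 (0.0149, 0.0129 and 0.0162), and with only the clones compared in the fit (0.0106).

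Among the neutral amino acid carriers, Slc1a5, Slc1a4 and Slc38a1 were lower in R7-II than in R7-III, and Slc1a4 and Slc38a1 also than in R7-I. Slc1a5, the main exchanger for glutamine, was at 467, 434 and 453 TPM in R7-I, at 437, 410 and 413 TPM in R7-II and at 490, 489 and 494 TPM in R7-III. The R7-II libraries were all below those of R7-III (log2 fold change -0.23, 95% interval -0.30 to -0.15, limma adjusted p = 1.60e-04), a call kept in all 19 alternatives, and 1 of them overlapped R7-I (-0.10, -0.18 to -0.03, limma adjusted p = 0.0174). Against R7-I it passed without R7-I replicate 2 (limma adjusted p = 0.00783), without R7-II replicate 1 (0.00448) and after median-of-ratios scaling (log2 fold change -0.29, limma adjusted p = 2.23e-05). Over all 19 alternatives its log2 fold change against R7-I ranged from -0.29 to -0.016, with limma adjusted p-values up to 0.695. Slc1a5 was higher in all R7-III than in all R7-I libraries, with a log2 fold change of 0.12 that missed the threshold (limma adjusted p = 0.0291).

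Slc1a4 (ASCT1), an exchanger of serine, alanine and other small neutral amino acids, was at 26.1, 24.1 and 24.1 TPM in R7-I, at 22.7, 21.1 and 19.4 TPM in R7-II and at 25.6, 26.1 and 26.2 TPM in R7-III. All R7-II libraries were below the other 6 (p = 0.0238, exact two-sided permutation test). The log2 fold change was -0.29 against R7-III (95% interval -0.43 to -0.16, limma adjusted p = 0.00137), which was kept in all 19 alternatives, and -0.23 against R7-I (-0.36 to -0.09, limma adjusted p = 0.00638), which passed in 9 of 19. The call against R7-I was lost when any library other than R7-II replicate 1 was left out, with limma adjusted p-values from 0.0102 (without R7-III replicate 3) to 0.0312 (without R7-I replicate 1), without the filter on low values (0.0109) and with only the clones compared (0.0183).

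The sodium-coupled carriers Slc38a1 (SNAT1) and Slc38a2 (SNAT2), which concentrate glutamine and alanine in the cell, lie on the same chromosome. Slc38a1 was called lower in R7-II in both comparisons, and Slc38a2 passed the threshold in neither. Slc38a1 was at 129, 124 and 128 TPM in R7-I, at 118, 110 and 115 TPM in R7-II and at 122, 125 and 131 TPM in R7-III. Again the R7-II libraries were below the other 6 (p = 0.0238, exact two-sided permutation test), by a log2 fold change of -0.15 against R7-I (95% interval -0.23 to -0.06, limma adjusted p = 0.00494) and -0.14 against R7-III (-0.22 to -0.05, limma adjusted p = 0.00733). Slc38a2, whose expression is known to rise when amino acids are short, was at 129, 120 and 127 TPM in R7-I, at 148, 119 and 137 TPM in R7-II and at 118, 120 and 119 TPM in R7-III. Its R7-II libraries overlapped both other clones, with log2 fold changes of 0.10 (-0.05 to 0.24, limma adjusted p = 0.207) and 0.17 (0.03 to 0.31, limma adjusted p = 0.0386). R7-II replicate 2 decided these values, since without it Slc38a2 was higher in R7-II, both against R7-I (log2 fold change 0.18, limma adjusted p = 0.00315) and against R7-III (0.26, limma adjusted p = 4.28e-04), while median-of-ratios scaling moved it to -0.09 and 0.04.

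The calls of Slc38a1 were lost without R7-I replicate 1 or 3 or R7-II replicate 2 or 3 in both comparisons, with limma adjusted p-values from 0.0112 to 0.0236, and against R7-III also without R7-III replicate 2 (0.0177) or 3 (0.0316) and with only the clones compared (0.0169). Both were lost without the mean-variance trend (limma adjusted p = 0.0155 and 0.0211). The ratio of Slc38a2 to Slc38a1, which the scaling leaves as it is, was 1.00, 0.972 and 0.990 in R7-I, 1.25, 1.07 and 1.19 in R7-II and 0.960, 0.965 and 0.910 in R7-III. It was above every other library in all R7-II libraries. Slc1a5 over Slc1a4 was 19.3, 19.5 and 21.2 in R7-II, 18.2 ± 0.495 in R7-I and 18.9 ± 0.218 in R7-III (mean ± SD, n = 3), and here too the R7-II libraries were the highest.

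Slc7a1 (CAT1), the main importer of arginine and lysine in activated T cells, was lower in R7-II in both comparisons under every alternative run. It was at 146, 142 and 144 TPM in R7-I, at 127, 111 and 123 TPM in R7-II and at 141, 145 and 145 TPM in R7-III. R7-I and R7-III overlapped and all R7-II libraries were below both (exact two-sided permutation test, p = 0.0238). R7-II differed from each clone by a log2 fold change of -0.26 (95% interval -0.36 to -0.16 for both, limma adjusted p = 4.71e-04 and 5.34e-04), and both calls were kept in all 19 alternatives. R7-III and R7-I differed by less than 0.01 on the log2 scale (interval -0.10 to 0.10, limma adjusted p = 0.980).

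Slc43a1 (LAT3), which lets large neutral amino acids pass down their gradient, was the 1 transporter called between R7-III and R7-I. It was at 2.35, 3.09 and 2.98 TPM in R7-I, at 2.82, 2.62 and 3.39 TPM in R7-II and at 4.43, 4.48 and 5.47 TPM in R7-III. All R7-III libraries were above the other 6, whose clones overlapped. The same held for Slc1a5 and Slc7a11, so for 3 of the 10 transporters, beside 1242 of the 11330 genes tested. The mean in R7-III was 1.71 times that in R7-I, with a log2 fold change of 0.61 (95% interval 0.35 to 0.87, limma adjusted p = 0.00585), and R7-II differed from R7-III by -0.56 (-0.82 to -0.29, limma adjusted p = 0.00180). The latter was kept in all 19 alternatives, whereas the call against R7-I was lost without any 1 of the R7-I or R7-III libraries, with limma adjusted p-values from 0.0123 (without R7-I replicate 2) to 0.0281 (without R7-I replicate 1), and also without the filter on low values (0.0161) and with quantile normalization (0.0209).

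By profile over the 9 libraries, with each gene centred on its own mean of log2(TPM + 1), the gene nearest to Slc7a5 among 7619 genes with a mean of at least 10 TPM was Lars, the leucyl-tRNA synthetase, at a root-mean-square difference of 0.0391. It was followed by 2410004N09Rik (0.0397), Nars, the asparaginyl-tRNA synthetase (0.0408), Slc7a1 (0.0425) and Shmt2, the mitochondrial serine hydroxymethyltransferase (0.0450), beside a median of 0.205 over all genes ranked. Of the other transporters, Slc38a1 ranked 120, Slc1a5 415, Slc1a4 546, Slc7a6 2121, Slc3a2 3002 and Slc38a2 3237. The heavy chain Slc3a2 was thus farther in profile from Slc7a5 than the arginine carrier Slc7a1. Slc7a11 and Slc43a1 were below 10 TPM and had no rank. Lars was at 166 ± 7.14 TPM in R7-II, against 194 ± 1.88 TPM for R7-III and 199 ± 5.79 TPM for R7-I.

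Among known regulators of these transporters, Myc was lower in R7-II (545 ± 25.9 TPM) than in R7-I (648 ± 12.4 TPM) and R7-III (598 ± 11.3 TPM), with log2 fold changes of -0.25 (limma adjusted p = 8.84e-05) and -0.13 (limma adjusted p = 0.00542). The call against R7-III was lost in 9 of 19 alternatives. With quantile normalization the log2 fold change was -0.037 (limma adjusted p = 0.446), and the call was also lost with the replicate block (limma adjusted p = 0.0129), without the filter (0.0115), without the mean-variance trend (0.0245), with only the clones compared (0.0134), and without R7-II replicate 1 or 2 (0.0169 and 0.0173) or R7-III replicate 1 or 2 (0.0177 and 0.0251). Atf4 was at 754, 706 and 717 TPM in R7-II, at 794, 747 and 805 TPM in R7-I and at 789, 815 and 796 TPM in R7-III. It was lower than in R7-III (log2 fold change -0.14, limma adjusted p = 0.00410) and short of the threshold against R7-I (-0.11, limma adjusted p = 0.0164). Here the call against R7-III was lost without R7-II replicate 2 or 3 (limma adjusted p = 0.0152 for both) or R7-III replicate 2 or 3 (0.0196 and 0.0104), without the mean-variance trend (0.0204) and with quantile normalization (log2 fold change -0.062, limma adjusted p = 0.0903). Atf4 passed against R7-I when R7-I replicate 2 (0.00455) or R7-II replicate 1 (0.00615) was left out and after median-of-ratios scaling (log2 fold change -0.30, limma adjusted p = 2.55e-05). Over all 19 alternatives its log2 fold change against R7-I ranged from -0.30 to -0.049, with limma adjusted p-values up to 0.175. Nfe2l2, the activator of antioxidant genes, was higher in R7-II, at 29.7 ± 2.07 TPM against 18.6 ± 1.04 TPM for R7-I and 21.6 ± 0.329 TPM for R7-III (log2 fold changes 0.65 and 0.44). Hif1a was at 122 TPM in R7-I and R7-II and at 112 TPM in R7-III and passed in neither R7-II comparison (limma adjusted p = 0.977 and 0.0215), though it was higher than in R7-III without R7-II replicate 2 (limma adjusted p = 0.00705) and lower than in R7-I after median-of-ratios scaling (log2 fold change -0.19, limma adjusted p = 0.00284).

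Of 46 further amino acid carriers, 17 passed the filter on low values, of which Slc6a19 and Slc7a7 did so only through R7-II and are left out of the counts. Of the other 15, 7 were higher and 1 lower in R7-II when compared with R7-I, and 5 were higher and 4 lower when compared with R7-III. Over all genes tested 40.6% were higher and 15.5% lower against R7-I, and 35.6% and 18.0% against R7-III. The median log2 fold changes of these carriers were 0.22 and 0.05, beside 0.17 and 0.12 for all genes. Median-of-ratios scaling moved the carrier medians to 0.03 and -0.07, and quantile normalization to -0.10 and -0.15. With quantile normalization 4 of the 15 were higher and 5 lower in each comparison, beside 22.6% higher and 26.6% lower of all genes against R7-I and 24.4% and 25.1% against R7-III. Slc6a19, a sodium-coupled carrier of neutral amino acids known from kidney and gut and named because its level was known from earlier results of these data, was at 0.14, 0.23 and 0.23 TPM in R7-I, at 11.3, 5.35 and 15.2 TPM in R7-II and at 0.12, 0.04 and 0.04 TPM in R7-III. It was thus above 5 TPM in all R7-II libraries and at 0.23 TPM or less in the other 6. Since R7-II alone brought the gene past the filter, its call is not read as a result. R7-II replicate 2 was the lowest of its clone for Slc6a19, as it was for the B cell, MHC class II and myeloid sums. The same held for the CD8 T cell sum and for the summed level of the 10 transporters. The part of other cells in the level of Slc6a19 was not tested. Slc43a2 (LAT4), a relative of Slc43a1, was at 4.81, 6.73 and 6.46 TPM in R7-I, at 19.1, 15.7 and 20.3 TPM in R7-II and at 7.72, 7.98 and 8.56 TPM in R7-III. All its R7-II libraries were above the other 6 (log2 fold changes 1.47 and 1.09). The most abundant carrier of the list, the taurine transporter Slc6a6, was lower in R7-II, at 63.2 ± 1.25 TPM against 77.4 ± 3.35 TPM for R7-I and 71.8 ± 0.148 TPM for R7-III (log2 fold changes -0.29 and -0.18). Slc38a10 was higher in R7-II by 0.22 and 0.19, calls that ended with median-of-ratios scaling (0.03 and 0.06) and with quantile normalization (0.10 and 0.11), and Slc16a10, a carrier of aromatic amino acids, was lower than in R7-III (-0.50) and not past the threshold against R7-I (-0.23, limma adjusted p = 0.0243). It passed against R7-I without R7-II replicate 2 (limma adjusted p = 0.00535), after median-of-ratios scaling (log2 fold change -0.41, 0.00161) and with quantile normalization (-0.47, 9.26e-04).

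**Figure D4:**
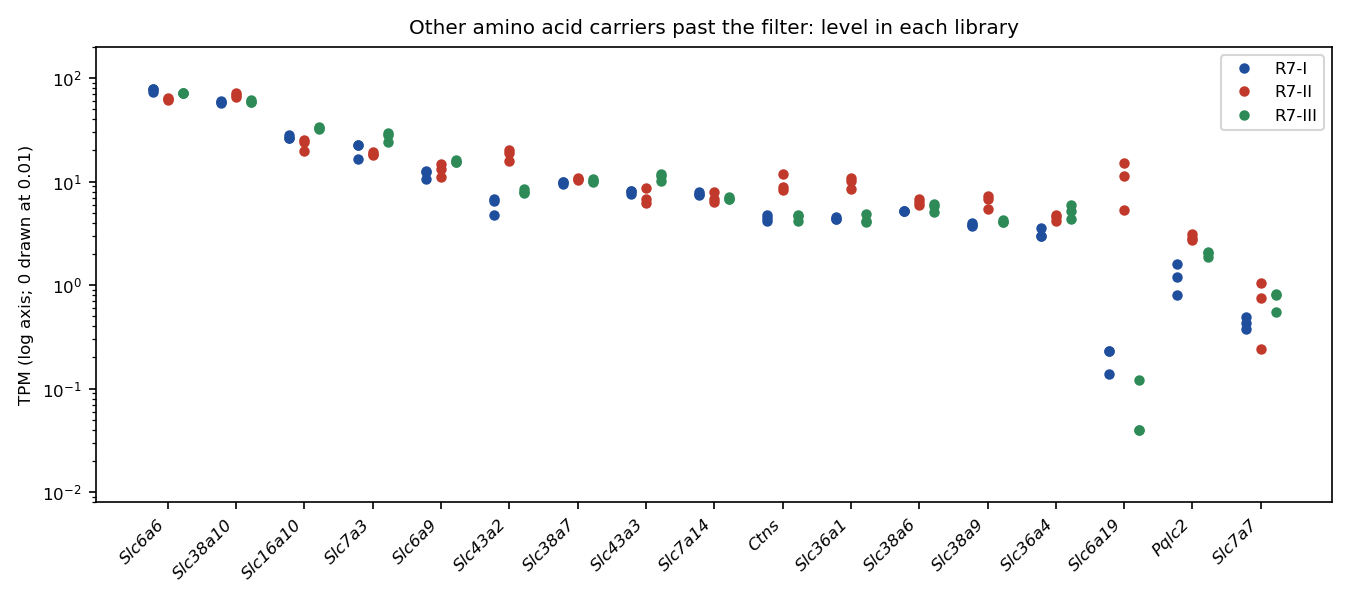
Level in TPM (log axis, values of 0 would be drawn at 0.01) of the 17 further amino acid carriers that passed the filter, in each of the 9 libraries, ordered by mean level and coloured by clone. The R7-II points of Slc6a19 lie between 5.35 and 15.2 TPM and all others of that gene at 0.23 TPM or less.

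Of 28 enzymes that use the imported amino acids, 26 were tested, and 12 were lower and 4 higher in R7-II when compared with R7-I, and 14 lower and 3 higher when compared with R7-III, with median log2 fold changes of -0.15 and -0.18. Of all genes 15.5% were lower and 40.6% higher against R7-I, and 18.0% and 35.6% against R7-III. After median-of-ratios scaling 21 enzymes were lower and 3 higher against R7-I, and 20 lower and 3 higher against R7-III. With that scaling 29.4% and 28.2% of all genes were lower, and 2860 and 2836 of the 11330 genes were higher. The most abundant were those of polyamine and methyl group supply. Srm, spermidine synthase, was at 436 ± 10.2 TPM in R7-II against 637 ± 8.06 TPM for R7-I and 681 ± 22.9 TPM for R7-III (log2 fold changes -0.55 and -0.64), and Odc1, ornithine decarboxylase, was lower than in R7-I (-0.18) and not past the threshold against R7-III (-0.07, limma adjusted p = 0.0873). Quantile normalization ended the call of Odc1 against R7-I (log2 fold change -0.082, limma adjusted p = 0.0142), and median-of-ratios scaling made it lower than in R7-III (-0.20, limma adjusted p = 9.27e-04). Mat2a, which makes S-adenosylmethionine from methionine, was lower by -0.35 and -0.36. The branched-chain amino acid transaminase Bcat1 was lower, at 63.4 ± 4.42 TPM in R7-II against 94.2 ± 2.98 TPM and 96.1 ± 2.67 TPM (log2 fold changes -0.57 and -0.59), and Bckdha, a subunit of the dehydrogenase that acts on the products of that reaction, was higher (33.3 ± 2.64 TPM against 16.1 ± 0.430 TPM and 17.4 ± 0.771 TPM, log2 fold changes 1.00 and 0.90). Gls2, a glutaminase, was lower at a level of 0.56 TPM against 2.21 and 1.90 TPM, and Gclc, the catalytic subunit of the first enzyme of glutathione synthesis, was higher (0.63 and 0.69 on the log2 scale).

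Of 30 genes listed for the sensing of amino acids by mTORC1, 27 were tested, of which 12 were higher and 4 lower in R7-II when compared with R7-I, and 9 higher and 2 lower when compared with R7-III. These counts stand beside 40.6% higher and 15.5% lower of all genes against R7-I and 35.6% and 18.0% against R7-III. Against R7-I, 9 to 15 passed with each library left out (9 without R7-I replicate 3 and 10 without R7-II replicate 1 or 3). The median log2 fold changes were 0.14 and 0.05, and median-of-ratios scaling turned them to -0.04 and -0.08, with 5 higher and 8 lower against R7-I and 4 higher and 6 lower against R7-III. With that scaling 29.4% and 28.2% of all genes were lower in the respective comparisons, and 2860 and 2836 of the 11330 genes were higher. The genes with the largest positive changes were inhibitors of the pathway, the leucine sensor Sesn1 (42.0 ± 5.59 TPM in R7-II against 14.9 ± 0.367 TPM for R7-I and 16.7 ± 0.760 TPM for R7-III, log2 fold changes 1.43 and 1.27) and Nprl2, a subunit of the GATOR1 complex (1.08 and 0.92). These remained higher after median-of-ratios scaling, Sesn1 by 1.25 and 1.14 and Nprl2 by 0.90 and 0.80. Lars, which is also a leucine sensor, and Fnip2, a partner of folliculin, were lower, Lars by -0.26 and -0.23 and Fnip2 by -0.46 and -0.47. Sec13 was lower than in R7-I (-0.13, limma adjusted p = 0.00758), a call that 8 of 19 alternatives kept and that was lost without any 1 library other than R7-I replicate 1 or R7-II replicate 2 (limma adjusted p from 0.0112 to 0.0328), and Lamtor1 was called in neither comparison (0.06 and -0.02). After median-of-ratios scaling both were lower than in R7-III (Sec13 by -0.20 and Lamtor1 by -0.15, limma adjusted p = 0.00133 and 0.00620).

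Of 27 genes of the response to amino acid shortage, 26 were tested, and 11 were lower and 5 higher in R7-II when compared with R7-I, and 12 lower and 5 higher when compared with R7-III, with median log2 fold changes of -0.09 and -0.18. The shares of all genes were 15.5% lower and 40.6% higher against R7-I, and 18.0% and 35.6% against R7-III. Cth, which makes cysteine, was at 24.9, 21.0 and 25.3 TPM in R7-I, at 10.5, 9.64 and 9.73 TPM in R7-II and at 47.1, 42.6 and 49.6 TPM in R7-III. No clones overlapped for Cth, which was the lowest in R7-II and the highest in R7-III (log2 fold changes of R7-II -1.17 and -2.11). Phgdh, the first enzyme of serine synthesis, was lower by -0.51 and -0.32, Shmt2 by -0.23 and -0.22 (-0.11 and no longer called against R7-III with quantile normalization, limma adjusted p = 0.0229), and Stc2, a secreted glycoprotein, was at 0.56 TPM against 4.16 and 2.70 TPM. The stress genes Ddit4 (REDD1), an inhibitor of mTORC1, and Ddit3 (CHOP) were higher, Ddit4 at 94.0 ± 16.2 TPM in R7-II against 29.9 ± 7.78 TPM for R7-I and 37.9 ± 4.81 TPM for R7-III (log2 fold changes 1.63 and 1.28) and Ddit3 by 0.81 and 0.88. Median-of-ratios scaling moved the list medians further below 0. With it the log2 fold changes were -0.69 and -0.46 for Phgdh, -0.41 and -0.35 for Shmt2, 1.45 and 1.15 for Ddit4 and 0.63 and 0.75 for Ddit3. As for the transporters, the part of the other cells' RNA in these list values was not tested.

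**Figure D5:**
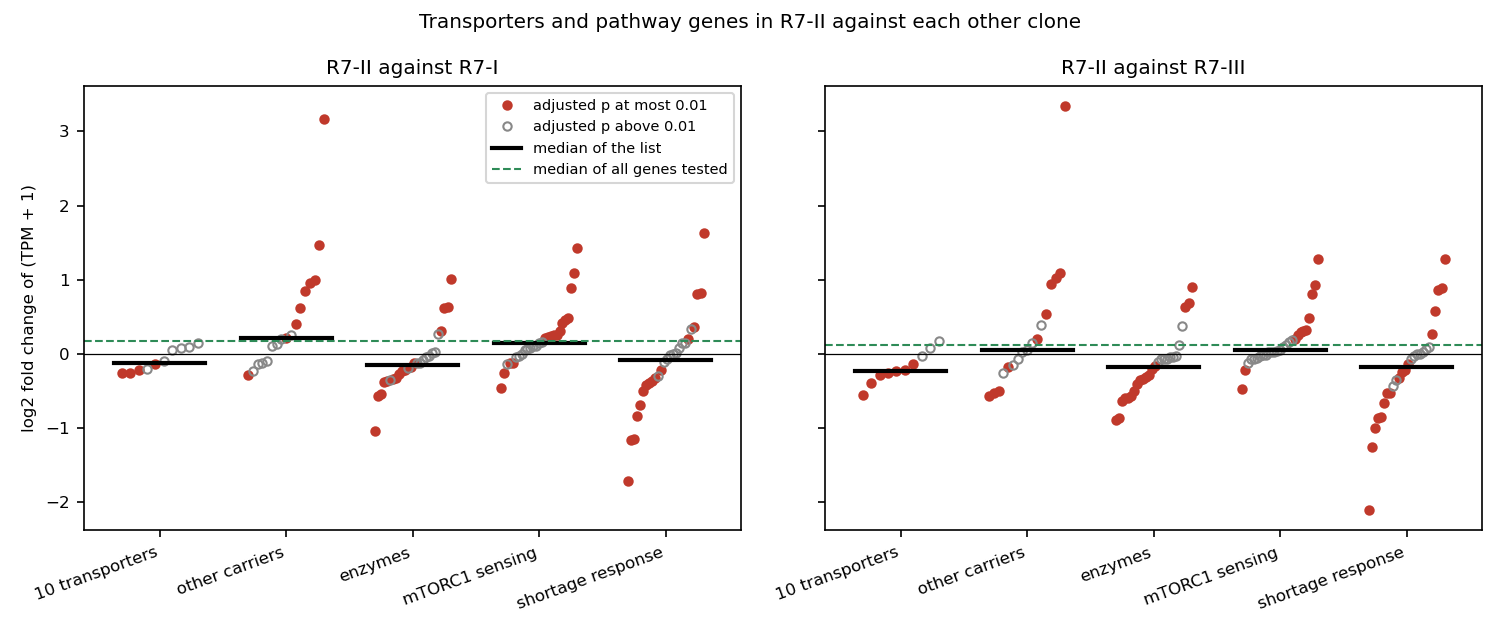
Log2 fold change of (TPM + 1) of the tested genes (vertical axis) in 5 lists, for R7-II against R7-I (left) and R7-III (right), red where the adjusted p was at most 0.01. Black bars are list medians and the dashed line is the median of all genes tested, and the transporter medians lie at -0.12 and -0.23 with all points between -0.56 and 0.17.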

How the data were processed

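RNA from 9 libraries was prepared with a TruSeq mRNA kit without strand marking and, per the labels and the methods of the study, RSEM 1.2.11 aligned the reads and counted them per gene on mm10. The authors deposited TPM values per gene, rounded to 2 decimals. The DESeq2 1.8.1 test run by the authors on counts was not used. TPM keeps no depth and the methods give only a typical read number for the samples, so depth per library is unknown. Between 13738 and 14434 genes were above 0 TPM per library, and log2(TPM + 1) correlated at 0.992 to 0.997 within clones.

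Genes with a highest TPM above 1 were kept. limma 3.58.1 (R 4.3.3, trend) compared the clones in 1 fit with Benjamini-Hochberg adjustment. Since TPM is not a count, this took the place of a count test. The fit was tested on simulated data. Exact permutation tests used mean TPM. Fold changes on the log2(TPM + 1) scale understate changes of low genes.

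The transporters and all lists were chosen with earlier results of these data known. Named were the 10 transporters, from each pathway list the 3 most abundant genes and the 2 largest changes per direction that passed in both R7-II comparisons, Slc6a19, 4 regulators, marker genes, and the 5 genes nearest to Slc7a5. Alternatives were the pseudocount (0.1 or 5), filter, scaling, trend, samples fitted, replicate block, threshold (0.05) and each library left out.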

Additional observations from a re-analysis of the deposited data

How the results depend on the processing

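Of 570 values of the transporters under alternatives (19 per gene and comparison), 493 kept their direction and side of the threshold. A call was lost in 48 and gained without a change of sign in 14, and 15 changed sign. Among the last, Slc7a6 for R7-II against R7-I with median-of-ratios scaling also gained a call (limma adjusted p = 0.00920). Of 1058 values of the other named genes, 1004 kept both, 32 lost a call, 14 gained one and 8 changed sign. The cause of changes was not tested. Between R7-II and R7-I, 4 transporters passed, 7 with median-of-ratios scaling, 2 without the mean-variance trend, and 1 to 5 with each library left out (1 without R7-I replicate 1 or 3). Between R7-II and R7-III, 7 passed, and 4 to 7 with libraries left out (4 without R7-III replicate 2 or 3). Between R7-III and R7-I, 1 passed, 0 without the filter on low values or with quantile normalization, 2 at an adjusted p of 0.05, and 0 to 1 with libraries left out. The mTORC1 list fell from 16 calls against R7-I to 10 with quantile normalization or only the clones compared, and to between 9 and 15 with libraries left out. The other list counts, both directions together, stayed within 1.5 times.

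Signs changed for R7-II against R7-I with median-of-ratios scaling in Slc3a2 (-0.042), Slc7a6 (-0.11), Slc38a2 (-0.090), Slc43a1 (-0.087) and Lamtor1 (-0.13), and with quantile normalization in Slc7a6 (-0.050), Slc43a1 (-0.30) and Hif1a (0.00011). Against R7-III they changed with median-of-ratios scaling in Slc3a2 (-0.062) and Hif1a (-0.0018), and with quantile normalization in Odc1 (0.057) and Lamtor1 (0.0051). With libraries left out, log2 fold changes against R7-I ranged from -0.038 to 0.11 for Slc43a1 and from -0.031 to 0.033 for Hif1a, and against R7-III from -0.053 to 0.0038 for Slc7a6 and from -0.042 to 0.0023 for Lamtor1. For R7-III against R7-I they ranged from -0.072 to 0.016 for Slc7a5, from -0.014 to 0.011 for Slc7a1 and from -0.037 to 0.011 for Slc38a1. None of these values that changed sign was called before.

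The labels do not say whether same-numbered libraries shared a mouse or a day. Deviations of same-numbered libraries correlated between -0.0449 and 0.0888, and those of differently numbered libraries between -0.0948 and 0.0649. With 3 libraries per clone these values cannot decide whether the numbers pair the samples. With the replicate block, 4, 7 and 1 transporters passed in the 3 comparisons, as without it. The call of Myc against R7-III was lost with the block (adjusted p = 0.0129, limma). Depth is unknown, so how much of the spread at the level of Slc7a11 and Slc43a1 is counting error cannot be told.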
